A study of Mus musculus with 6 samples.

Results

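The phagocyte NADPH oxidase was followed through 6 of its genes, Cybb, Cyba, Ncf1, Ncf4, Rac1 and Rac2, which were found by symbol among 54446 gene rows in RNA-seq of murine bone marrow-derived macrophages (BMDMs). All 6 were found, and all passed the minimum of 10 counts in at least 1 library that 14917 genes passed. Marrow cells from male BALB/c mice aged 6 to 8 weeks were grown into macrophages over 7 days in medium with 20% L929-conditioned medium. In the M0 state they were left unpolarized. The M1 state was set by 24 hours with LPS at 50 ng/mL plus IFN-γ at 20 ng/mL, and the M2 state by 24 hours with 20 ng/mL of IL4. Each state was sequenced with regorafenib (1 µM, given 1 hour before), a multikinase inhibitor used in liver cancer, or with DMSO as its control. For M0, the further hours of culture and of drug exposure are not stated in the sources used here. M0 may therefore differ from M1 and M2 in time as well. There was 1 library per condition and 6 in all, so a difference between a pair of libraries has no replicate check, and its 95% interval covers counting error only. How many animals gave the cells of a library is not stated in the sources used here. The libraries held between 25359309 and 34898342 counts.

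The phagocyte NADPH oxidase moves electrons from NADPH in the cytosol to oxygen in the phagosome or outside the cell and so makes superoxide, which is used in killing microbes and in redox signaling. Its catalytic core, cytochrome b558, is a pair of membrane proteins, gp91phox (NOX2, Cybb) and p22phox (Cyba). In resting cells the organizer p47phox (Ncf1) and p40phox (Ncf4) stay in the cytosol. On activation they move to the membrane together with a Rac GTPase, and loss of Cybb, Cyba, Ncf1 or Ncf4 causes chronic granulomatous disease in humans. IFN-γ is a known inducer of Cybb.

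The genes lie on chromosomes X (Cybb, 9435252 to 9487771, minus strand), 8 (Cyba, 122424776 to 122432930, minus), 5 (Ncf1, 134220053 to 134229625, minus, and Rac1, 143503634 to 143528036, minus) and 15 (Ncf4, 78244801 to 78262580, plus, and Rac2, 78559167 to 78572783, minus) of GRCm38 by Gencode M21. Promoters are shown for the 3 of 6 members matched in the RefSeq table used here, Cybb, Cyba and Ncf1, so that Cybb can be read beside its partner. Each is 300 bases of RefSeq on GRCm38.p6, read 5′ to 3′ on the gene's own strand from 250 bases before the start site, and capitals mark letters that matched a motif. The windows are chrX:9469275-9469574 for Cybb, chr8:122432891-122433190 for Cyba and chr5:134229576-134229875 for Ncf1, all on the minus strand.
Cybb: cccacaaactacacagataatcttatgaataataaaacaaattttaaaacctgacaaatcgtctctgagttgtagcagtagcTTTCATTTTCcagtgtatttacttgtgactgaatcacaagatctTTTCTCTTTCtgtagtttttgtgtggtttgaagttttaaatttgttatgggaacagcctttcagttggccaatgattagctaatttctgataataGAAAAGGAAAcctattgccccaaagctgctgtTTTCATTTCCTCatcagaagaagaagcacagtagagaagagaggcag
Cyba: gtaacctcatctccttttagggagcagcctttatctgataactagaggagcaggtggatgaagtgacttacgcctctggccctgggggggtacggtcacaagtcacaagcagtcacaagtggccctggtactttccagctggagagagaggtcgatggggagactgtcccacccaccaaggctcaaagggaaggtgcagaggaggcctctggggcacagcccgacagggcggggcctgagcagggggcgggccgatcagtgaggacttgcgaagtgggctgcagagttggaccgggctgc
Ncf1: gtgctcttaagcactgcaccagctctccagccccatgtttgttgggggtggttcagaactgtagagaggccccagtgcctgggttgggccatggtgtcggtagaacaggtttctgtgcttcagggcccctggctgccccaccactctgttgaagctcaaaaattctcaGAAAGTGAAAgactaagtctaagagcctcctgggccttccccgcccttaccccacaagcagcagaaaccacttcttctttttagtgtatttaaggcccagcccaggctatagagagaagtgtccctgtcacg

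Both strands were searched for 3 motifs: an ETS-IRF composite (GGAANNGAAA, found in 2.72% of 32851 promoters of the same length), an IRF repeat (GAAANNGAAA, 3.44%) and a PU.1 core (GAGGAA, 28.3%). The base at the start site is position 0. The Cybb window held 3 IRF repeats, with first bases at −168, −124 and −29. It also held an ETS-IRF composite from position 3 to 12, which overlaps a PU.1 core from 9 to 14. The Ncf1 window held an IRF repeat from −82 to −73. No match to these letters was found in the Cyba window. The start used for Cybb lies inside the Gencode gene, whose outermost transcript begins farther upstream. These matches describe letters and no binding was measured.

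Macrophage markers were present in every library: all 9 of the list (among them Adgre1, Csf1r and Cd68) were at 1 CPM (counts scaled to a common library size) or more, and they summed to 31100 and 48900 CPM in M0, to 31600 and 34100 CPM in M1 and to 22300 and 33800 CPM in M2 for control and regorafenib, so that the sum was higher with regorafenib in each state. Lyz2 held most of it (1408918 counts in M0 regorafenib). Neutrophils carry the same oxidase. Their markers summed to 2.03 to 4.1 CPM in the M0 and M2 libraries and to 74.2 and 24.2 CPM in the M1 control and M1 regorafenib libraries, mostly from S100a8 (1804 and 489 counts there). Camp, another of the list, held 108 and 91 counts in those M1 libraries and 0 or 1 elsewhere. Ly6g and Retnlg were at 0 in all 6 libraries. Dendritic cell markers summed to 0.334 to 2.54 CPM outside M1 and to 32.1 and 39.0 CPM in M1, mostly from Ccr7 (780 and 827 counts). Xcr1 held 36 and 102 counts in M1 control and M1 regorafenib and 0 or 1 elsewhere, and Siglech was at 0 throughout. Fibroblast markers summed to 9.61 to 31.5 CPM, with 10.1 and 21.8 CPM in M0 and 9.61 and 18.9 CPM in M2 for control and regorafenib. Markers of B cells, T cells and eosinophils summed to at most 7.15 CPM. The part of these markers' cells in the results was not tested, and in bulk RNA fewer cells of a type and less RNA per cell cannot be told apart.

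Cybb, which encodes the catalytic gp91phox, had the widest range of the 6 genes. It held 9026 counts in the M0 control library and 38857 in M0 regorafenib, 173454 in M1 control and 155402 in M1 regorafenib, and 4757 in M2 control and 17421 in M2 regorafenib. The 2 M1 libraries stood far above the others, and in M0 and M2 the regorafenib library lay above its control. After scaling with TMM, which corrects library size for a few genes that take many reads, these were 294 and 1180 CPM in M0, 6710 and 6450 CPM in M1, and 130 and 623 CPM in M2. The highest library, M1 control, was 51.5-fold above the lowest, M2 control. By number of counts Cybb ranked 12 among all genes in M1 control and 1440 in M2 control.

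Cyba, whose p22phox product pairs with gp91phox and stabilizes it, was far steadier. Its level was 402 and 445 CPM in M0, 582 and 726 CPM in M1, and 450 and 497 CPM in M2 (control and regorafenib). The M1 libraries were the highest and the range over all 6 was 1.81-fold. Ncf1, which encodes the organizer p47phox, stood at 621 and 776 CPM in M0, 792 and 1250 CPM in M1, and 707 and 666 CPM in M2. M1 regorafenib was its highest library, and the other 5 lay between 621 and 792 CPM. Ncf4, which encodes the phosphoinositide-binding p40phox, stood at 287 and 356 CPM in M0, 505 and 515 CPM in M1, and 289 and 357 CPM in M2, so that both M1 libraries lay above the other 4.

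The GTPases split. Rac1, the Rac found in nearly all cell types, lay between 341 and 386 CPM in the 6 libraries, a range of 1.13-fold. Rac2, the Rac of blood cells, stood at 406 and 353 CPM in M0, 869 and 1060 CPM in M1, and 401 and 346 CPM in M2. Its M1 libraries lay above the other 4, and the range was 3.07-fold. Rac1 shares 2309 of its 4496 exonic bases with Daglb on the opposite strand, and Ncf1 shares 408 of its 3663 with Gtf2ird2 on the opposite strand. Daglb held 232 to 6134 counts over the libraries. The strand setting of the counting is not stated. Of 489 genes whose exons lie wholly within exons of the other strand, 67 held at least 10 counts, which counting without strand would leave at 0. The remaining 4 genes share no exonic base with a neighbor, and no 100-base word of theirs occurs in another gene.

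**Figure D1:**
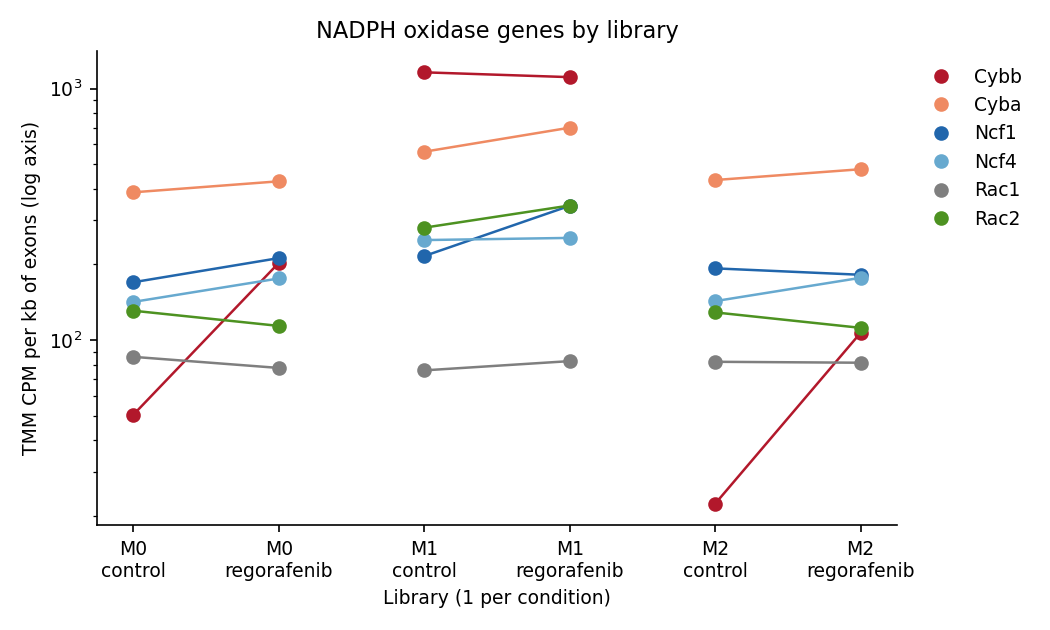
Level of each gene (TMM CPM per kb of exons, log axis) in the 6 libraries, 1 point per library, with a line from control to regorafenib within a state. Cybb runs from 22.4 in M2 control to 1160 in M1 control, while Rac1 stays between 75.9 and 85.9.

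Levels were compared between genes per kb of exons. In M0 control the order was Cyba (387 CPM per kb), Ncf1 (170), Ncf4 (142), Rac2 (131), Rac1 (85.9) and Cybb (50.6). In M2 control the order was the same, and Cybb was again the lowest at 22.4 CPM per kb beside 433 for Cyba. With IFN-γ and LPS, Cybb moved from the last place to the first, at 1160 CPM per kb in M1 control and 1110 in M1 regorafenib, followed by Cyba at 561 and 699. With regorafenib, Cybb reached 203 CPM per kb in M0, above Ncf4, Rac2 and Rac1, and 107 in M2, above Rac1 only. Neighbors in these orders could not be tested, because a condition has 1 library, and several lie close together, such as Rac2 and Ncf1 in M1 regorafenib (343 and 342 CPM per kb). Of the summed level of the 6 genes, Cybb made up 5.24% of M0 control and 16.8% of M0 regorafenib, 45.6% and 39.2% of the M1 libraries, and 2.23% and 9.41% of the M2 libraries.

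The comparison of regorafenib with control asked how the drug moved the oxidase genes in each state. In M0, Cybb was 4.01-fold higher with regorafenib (log2 ratio 2.0, 95% interval 1.97 to 2.04). In M2 it was 4.78-fold higher (2.26, 2.21 to 2.30). In M1, the state with the highest Cybb, the log2 ratio was −0.058 (−0.068 to −0.048). The cause of this difference between states was not tested. Cybb was the only member that differed by 2-fold or more between regorafenib and control in any state: 1 of 6 members in M0, where 21.6% of all 14917 genes did, 0 of 6 in M1 (7.94%) and 1 of 6 in M2 (13.2%). A ratio at least as far from 0 as that of Cybb was found for 5.87% of genes in M0 and for 2.42% in M2.

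The partner Cyba was slightly higher with regorafenib in each state, with log2 ratios of 0.15 in M0, 0.32 in M1 and 0.14 in M2. Ncf4 was higher by 0.31 in M0 and 0.31 in M2, and its ratio in M1 was 0.03 (−0.01 to 0.06). Ncf1 had its highest ratio in M1 (0.66, 0.63 to 0.69), with 0.32 in M0 and −0.086 (−0.11 to −0.058) in M2. None of these came near the ratios of Cybb in M0 and M2. Rac1 stood at −0.15 in M0, 0.12 in M1 and −0.01 (−0.05 to 0.02) in M2. Rac2 was lower with regorafenib in M0 (−0.20) and M2 (−0.21) and higher in M1 (0.29). The median over the 6 members was 0.23 in M0, 0.21 in M1 and 0.06 in M2, beside medians over all genes of −0.01, −0.02 and −0.01.

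**Figure D2:**
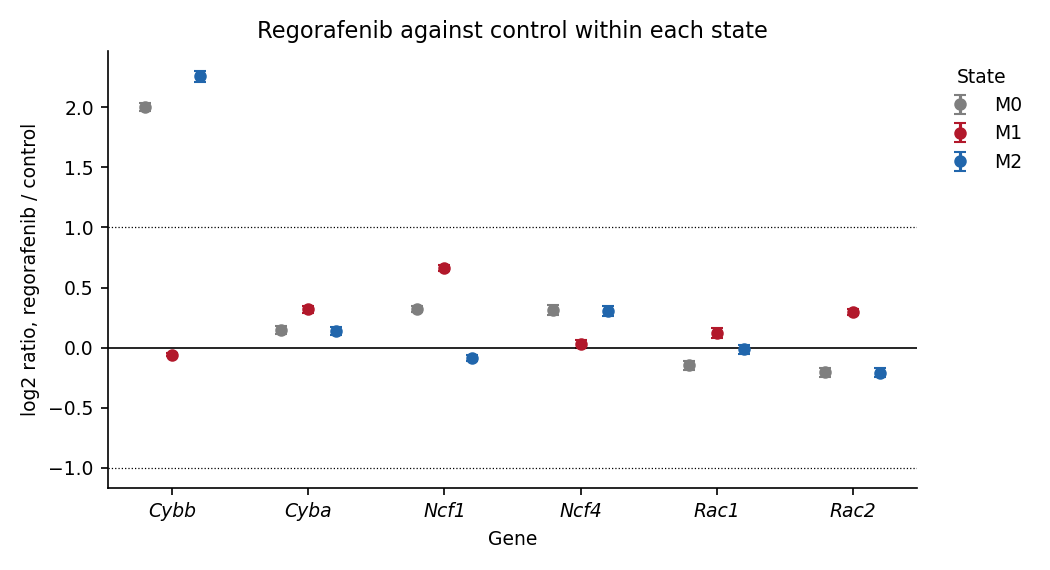
Log2 ratio of regorafenib to control for each gene in M0, M1 and M2, 1 pair of libraries per point, with 95% counting intervals. Dotted lines mark 2-fold. Cybb lies at 2.0 in M0 and 2.26 in M2 and at −0.058 in M1, and the other 5 genes lie between −0.21 and 0.66.

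The ratio of Cybb in M0 exceeded that in M1 by 2.06 on the log2 scale (counting interval 2.03 to 2.10), and that in M2 exceeded M1 by 2.32 (2.27 to 2.36). M2 exceeded M0 by 0.25 (0.20 to 0.31). For Ncf1 the ratio in M2 lay below that in M1 by 0.75 (difference −0.75, −0.78 to −0.71), and for Rac2 the differences from M1 were −0.50 in M0 and −0.50 in M2. With 1 library per condition a test of these differences across replicates could not be made.

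An effect of regorafenib shared by the 3 states was tested with 3 libraries a side, with state as a block. The residual spread of this fit comes from how far the states differ in their response. For Cybb the log2 difference was 1.44 (SE 0.50), with an adjusted p of 0.41 by edgeR's quasi-likelihood test with Benjamini-Hochberg adjustment over 14110 genes. The adjusted p of the other 5 members lay between 0.50 and 0.995, so 0 of 6 passed. Among all genes 0 passed as well (0%). There were 1637 genes at an unadjusted p under 0.05, and DESeq2 called 296 genes. Cybb passed by DESeq2 (adjusted p = 0.040), with all 24938 genes that had a count in the edgeR fit (adjusted p = 0.044), and without the 2 M1 libraries (log2 2.15, adjusted p = 0.040). Without the M0 libraries it stood at 1.12, and without the M2 libraries at 0.98, and neither passed (adjusted p = 0.9999 and 0.95). Without the block on state the fitted difference of Cybb was 0.21.

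The comparison of states asked how polarization set the oxidase genes. In the controls, Cybb was 22.8-fold higher in M1 than in M0 (log2 4.51) and 51.5-fold higher than in M2 (5.69), and it was lower in M2 than in M0 (−1.17). With regorafenib the same gaps were 2.45, 3.37 and −0.92. Rac2 was also past 2-fold in M1, at 1.10 against M0 and 1.12 against M2 in the controls and at 1.59 and 1.62 with regorafenib. Thus 2 of 6 members differed by 2-fold or more between M1 and M0 in control (37.5% of all genes), and 2 of 6 in regorafenib (38.8%). Between M1 and M2 there were 2 of 6 in control (38.3%) and 2 of 6 in regorafenib (37.2%). Between M2 and M0 there was 1 of 6 in control (14.0%) and 0 of 6 in regorafenib (11.5%). These comparisons share libraries with each other and with the drug ratios.

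Across both treatments, with 2 libraries a side and treatment as a block, 4 of 6 members rose in M1 against M0 at an adjusted p under 0.05 (36.7% of all genes passed, in either direction). Rac2 rose by 1.41 (SE 0.21, adjusted p = 0.0049), Cybb by 3.70 (SE 0.64, adjusted p = 0.0079), Ncf4 by 0.73 (SE 0.18, adjusted p = 0.024) and Cyba by 0.68 (SE 0.17, adjusted p = 0.028). Ncf1 stood at 0.59 (adjusted p = 0.10) and Rac1 at 0.01 (adjusted p = 0.96). Against M2, 3 of 6 rose in M1 (37.5% of all genes passed): Cybb by 4.71 (SE 0.67, adjusted p = 0.0039), Rac2 by 1.43 (SE 0.21, adjusted p = 0.0045) and Ncf4 by 0.72 (SE 0.18, adjusted p = 0.025). Cyba stood at 0.51 (adjusted p = 0.065, and 0.036 by DESeq2, with which 4 of 6 passed) and Ncf1 at 0.59 (adjusted p = 0.10). Both comparisons use the same 2 M1 libraries. Each side held 1 control and 1 regorafenib library and no replicates. The residual spread comes from how far the treatments differ in the state effect. Between M2 and M0 none of the 6 passed (0.198% of all genes did), and Cybb stood at −1.01 (SE 0.57, adjusted p = 0.74). It stood at −0.47 without M0 regorafenib or without M2 control and at −1.78 without M2 regorafenib.

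The scaling bears on the smaller M1 differences. When libraries were scaled by total counts in place of TMM, the median of all genes in M1 against M0 in control was −0.49 in place of −0.05, and the members moved down with it. Cybb then stood at 4.07 and Rac2 at 0.65 in that comparison, while Ncf1 turned from 0.35 to −0.09. Rac1 went from −0.18 to −0.62 in control and from 0.09 to −0.32 in regorafenib, and in the fit from 0.01 to −0.47 (adjusted p = 0.066), so its flat level across states holds after TMM and not with total counts. In the fit across treatments scaled by total counts, Cybb and Rac2 still passed against M0, while Cyba (0.19, adjusted p = 0.37) and Ncf4 (0.25, adjusted p = 0.27) did not. Cyba and Ncf4 did not pass against M0 without either M0 library, nor Cyba without M1 regorafenib, nor Cybb without the block on treatment (3.22, adjusted p = 0.0505). Against M2, Ncf4 did not pass with total counts or without either M2 library, and Rac2 did not pass without M2 regorafenib (adjusted p = 0.053). Ncf1 passed without M1 control, at 0.85 against M0 (adjusted p = 0.036) and 0.86 against M2 (adjusted p = 0.039), and stood at 0.31 in both without M1 regorafenib. Cybb passed without either M1 library, at 2.45 without M1 control and 4.64 without M1 regorafenib against M0.

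**Figure D3:**
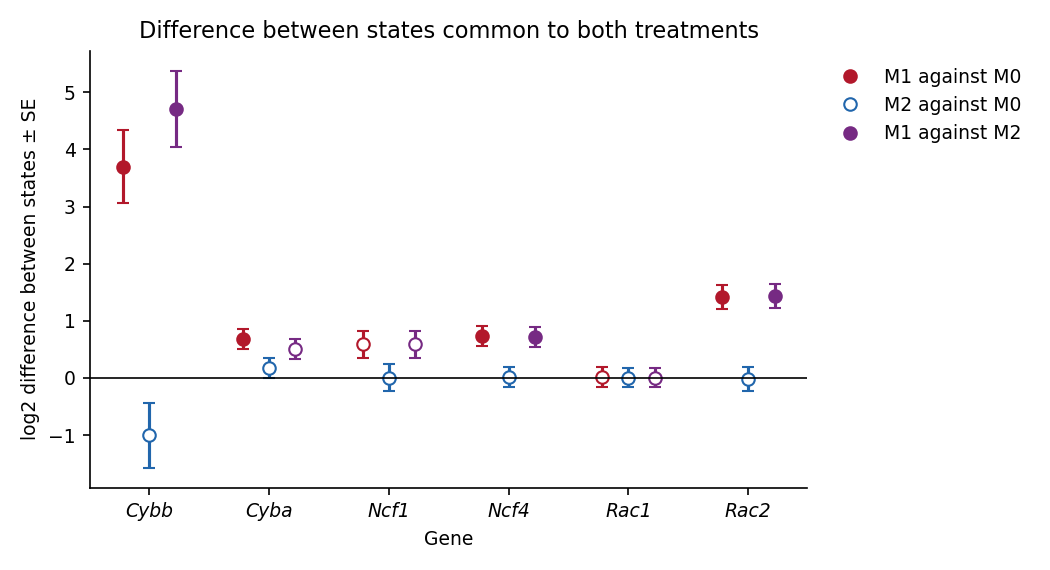
Log2 difference between states for each gene from the edgeR fit across both treatments, with the SE implied by the test, 2 libraries a side. Filled points passed an adjusted p under 0.05. Cybb and Rac2 are filled in both M1 comparisons, and all 6 points of M2 against M0 are open.

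Ratios within a library do not depend on the scaling. Per base of exon, Cybb to Cyba, the transcripts of the 2 cytochrome subunits, stood at 0.131 in M0 control and 0.474 in M0 regorafenib, at 2.06 and 1.59 in M1, and at 0.0518 and 0.224 in M2. Cybb thus exceeded Cyba in the 2 M1 libraries only, and the ratio in M0 and M2 was higher with regorafenib than with control. Among the GTPases, Rac2 made up 60.4% and 59.4% of Rac1 and Rac2 per base in M0 (control and regorafenib). Its share was 78.7% and 80.6% in M1 and 61.1% and 57.8% in M2. Rac2 therefore led in each library, and most in M1. Ncf1 to Ncf4, the organizer to p40phox, lay between 0.866 (M1 control) and 1.35 (M2 control), and within M1 it was below 1 in control and 1.34 in regorafenib.

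**Figure D4:**
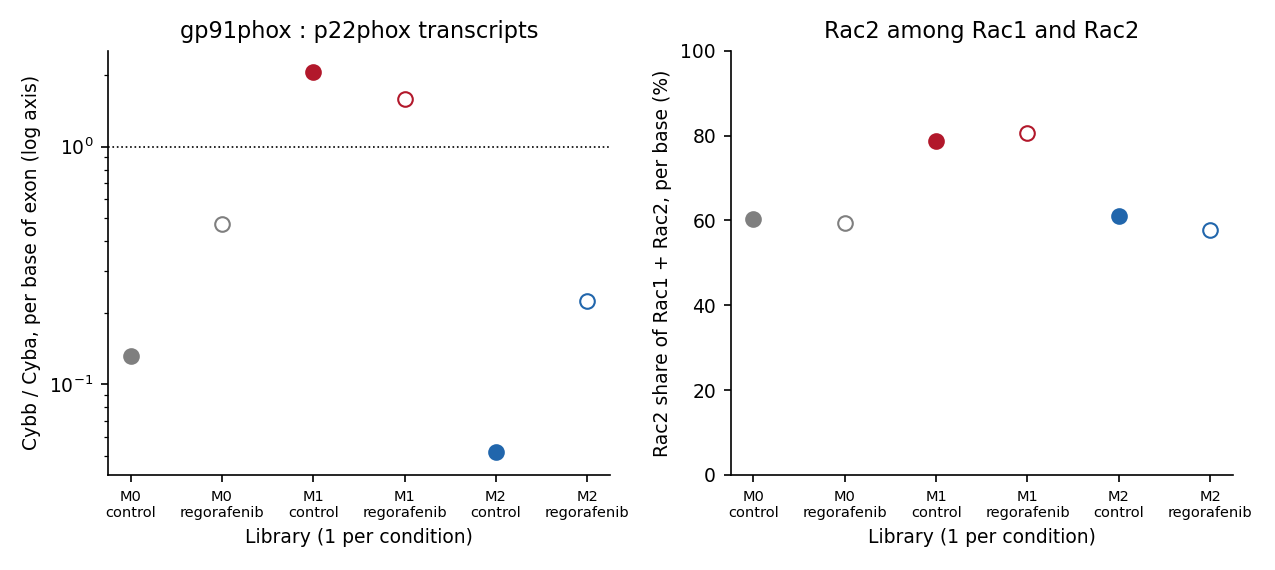
Left, ratio of Cybb to Cyba per base of exon (log axis, dotted line at 1). Right, share of Rac2 in Rac1 and Rac2 per base. Each point is 1 library, filled for control and open for regorafenib, and binomial 95% intervals are smaller than the points. The Cybb to Cyba ratio is above 1 in M1 only, and the Rac2 share is 78.7% and 80.6% in M1 and 57.8% to 61.1% elsewhere.

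The genes whose pattern over the 6 libraries lay nearest to each member were sought among 10502 genes with a mean of at least 100 counts, by the root mean square difference of centered log2(CPM + 1). Nearest to Cybb were Plbd1 (0.317), Abca1, a cholesterol exporter (0.326), and Birc3, an inhibitor of apoptosis (0.438). For control and regorafenib, Abca1 counts were 513 and 2520 in M0, then 7675 and 5144 in M1, then 172 and 730 in M2. Nearest to Rac2 were Selenow (0.0501), Anp32a (0.0551) and Fcer1g, the signaling chain of Fc receptors (0.0687). Tmco3, Ubox5 and Pigw lay nearest to Cyba, Slc38a6, Grk2 and Pex16 to Ncf1, Slc39a1, Wipf2 and Zfp438 to Ncf4, and Dpp9, Plrg1 and Csrnp2 to Rac1. Among the members, Cyba and Ncf4 lay nearest to each other (0.138), and Cybb lay at 1.63 or more from each of the others.

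The genes around the oxidase were read in 6 lists. Beside their counts, 21.6% of all genes were past 2-fold with regorafenib in M0, 7.94% in M1 and 13.2% in M2, with medians of −0.01, −0.02 and −0.01, and 36.7% passed in M1 against M0 and 37.5% in M1 against M2. With total counts the all-gene calls themselves turned to lower, with 1629 of 14110 genes higher and 5113 lower in M1 against M0 and 1801 higher and 4645 lower in M1 against M2, in place of 2609 and 2565, and 2671 and 2619. Of 16 other NADPH oxidase genes and partners, 8 were measured with at least 10 counts. Hvcn1, the proton channel that offsets the charge moved by the oxidase, went from 2495 to 5961 counts in M0 (log2 1.16, interval 1.09 to 1.22) and from 3063 to 6827 in M2 (1.54, 1.48 to 1.60). In M1 it held 2107 and 2102 counts. Noxo1, an organizer of the NOX1 oxidase, was higher in M0 (41 and 136 counts, 1.63), and Rac3 was lower in M2 (211 and 67 counts, −1.27). Past 2-fold in the list were 2 genes higher and 1 lower in M0, 0 in M1, and 2 higher and 1 lower in M2, where the gene lower in M0 is Nox1 (33 and 0 counts). The medians were −0.11, 0.0021 and −0.30. Cybc1, the chaperone of the cytochrome that is named for its role, rose in M1 against M0 by 1.33 (SE 0.16, adjusted p = 0.0025) and against M2 by 1.44 (SE 0.16, adjusted p = 0.0018). Of the 8 genes, 2 rose in M1 against M0 and 3 against M2, and 0 fell. With total counts 1 rose against each.

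Of 18 Rac activators and inhibitors, all were measured, and 0 were higher by 2-fold or more with regorafenib in any state. Lower by 2-fold or more were 2 in M0, 1 in M1 and 2 in M2 (medians −0.01, 0.04 and 0.04). Racgap1, a GTPase-activating protein of cell division, was lower in M0 (5414 and 1657 counts, −1.81), and Vav3, a Rac exchange factor, was lower in M2 (4975 and 1866 counts, −1.03). Between states, 2 rose and 9 fell in M1 against M0, and 5 rose and 10 fell against M2. With total counts these were 1 and 11, and 3 and 11.

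Of the 20 measured kinases and lipid kinases upstream of oxidase assembly, 0 in M0, 1 lower in M1 and 2 higher in M2 were past 2-fold with regorafenib (medians 0.11, −0.13 and 0.12). Prkce, a protein kinase C, was lower in M1 (186 and 63 counts, −1.46) and higher in M2 at low counts (17 and 41, 1.65), and the Src family kinase Fgr was higher in M2 (507 and 982 counts, 1.34). In M1 against M0, 6 rose and 3 fell, and against M2, 7 rose and 5 fell, which became 4 and 10, and 5 and 11 with total counts.

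Among 16 measured transcription factors known to act on oxidase genes, 2 were higher and 2 lower in M0, 1 was lower in M1, and 2 were higher and 1 lower in M2 by 2-fold or more with regorafenib (medians 0.17, −0.11 and 0.06). Irf1, an interferon-induced activator, went from 1091 to 2605 counts in M2 (1.64, 1.54 to 1.74). Cebpa, a myeloid factor, was higher in M0 (1744 and 4086 counts, 1.13). In M1 against M0, 5 rose and 4 fell, and against M2, 7 rose and 4 fell. Irf1 rose in M1 against M0 by 3.78 (SE 0.47, adjusted p = 0.0027), while Cebpa fell by 3.50 on the log2 scale (SE 0.32, adjusted p = 0.0012). With total counts, 4 rose and 6 fell against M0, and 6 rose and 6 fell against M2.

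The oxidase draws on NADPH, and of 18 measured genes of NADPH supply, 1 was higher and 2 lower in M0 and 0 in M1 and M2 were past 2-fold with regorafenib (medians −0.40, −0.22 and −0.21). Idh1, a cytosolic source of NADPH, was higher in M0 (5843 and 16034 counts, 1.36), and the glucose transporter Slc2a1 was lower (3194 and 1381 counts, −1.31). Between states, 6 of the 17 genes tested rose and 3 fell in M1 against M0, and 6 rose and 2 fell against M2. Of 17 measured genes that dispose of superoxide and peroxide, Gpx3, a secreted glutathione peroxidase, was the only one past 2-fold with regorafenib (210 and 573 counts in M0, 1.35), with list medians of −0.11, 0.01 and 0.06. In M1, 7 rose and 2 fell against M0, and 8 rose and 2 fell against M2. With total counts, the supply genes split 4 and 6 against M0 and 5 and 6 against M2, and the disposal genes 6 and 6, and 6 and 5. In the fit of a regorafenib effect common to the 3 states, 0 genes of the 6 lists passed, and the same held for M2 against M0.

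**Figure D5:**
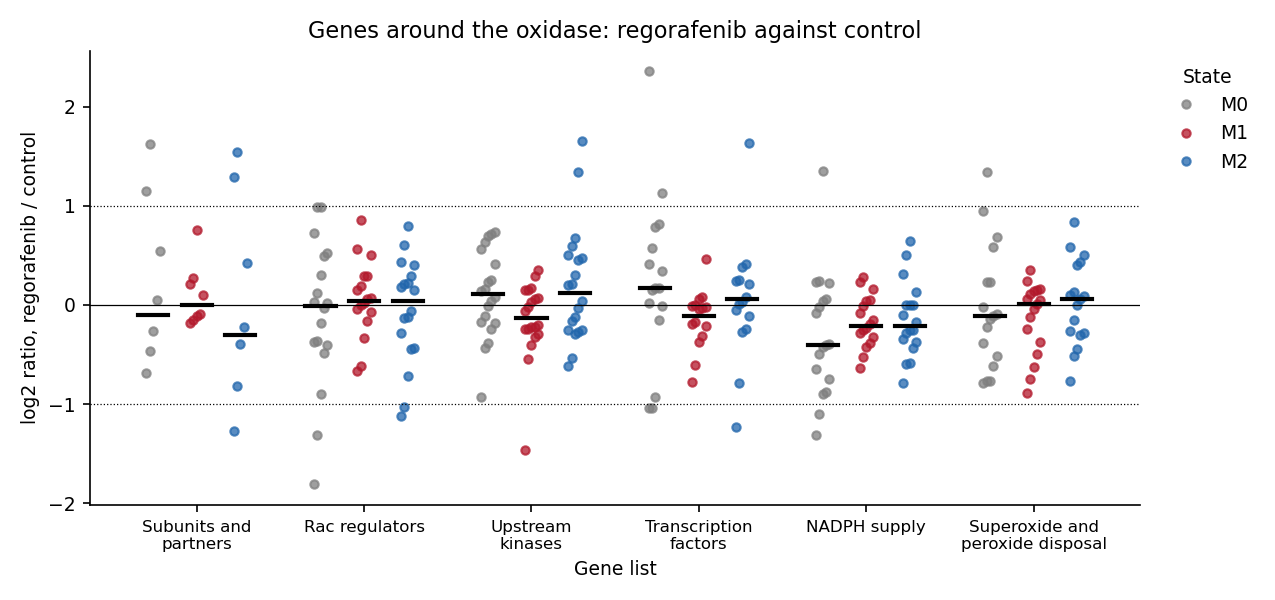
Log2 ratio of regorafenib to control for the measured genes of 6 lists in M0, M1 and M2, 1 pair of libraries per gene and state. Genes with 3 or fewer counts in either library of a pair have no point, black bars are the median of all measured genes of a list, and dotted lines mark 2-fold. The medians lie between −0.40 and 0.17.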

How the data were processed

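RNA of 6 BMDM libraries was sequenced with a stranded mRNA kit, and the authors deposited raw read counts per gene. By their methods and processing notes, reads were trimmed with cutadapt 2.4 and mapped to GRCm38 with STAR 2.7.2a, and counts per gene came from STAR on Gencode M19. The strand column is not given in the sources used here. The whole numbers sum to different totals, so no normalization had been applied.

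Names, positions and exon lengths came from Gencode M21 (53229 of 54446 IDs matched with version and 1180 without it). The 6 members and the gene lists were chosen with earlier results of these data known. Counts were scaled with TMM (edgeR 4.0.16, R 4.3.3) over the 6 libraries. Log2 ratios between a pair of libraries used 0.5 for a count of 0, with a 95% conditional exact binomial interval, which covers counting error only. A 2-fold difference was counted among genes that reached 10 counts in some library. CPM per kb used the merged exons of a gene. Effects with more than 1 library a side were fitted with edgeR's quasi-likelihood test (state and treatment as terms, 2 residual degrees of freedom, filterByExpr, Benjamini-Hochberg adjustment over all genes tested), with DESeq2 1.42.0 as an alternative. The SE is the one implied by the test's F value. No source says which libraries came from separate cultures or animals, so p-values measure only the spread between these libraries. The study's NOISeq step rests on simulated replicates and was not used.

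The genes named are the 6 members, the 2 highest and 2 lowest regorafenib ratios of each list in each state among genes past 2-fold whose higher library reached 100 counts, the 3 genes nearest to each member, and list markers. Some list members are counted but their values are not reported here. Cybc1 was added for its role, and genes named for Rac1 and Ncf1 because they overlap them, after values were seen. Alternatives were other scalings, folds and filters, 1 CPM added, no block, libraries left out and the length of the longest transcript. The scaling alternatives for differences between states were chosen after seeing the data.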

Additional observations from a re-analysis of the deposited data

Results flagged for a closer look

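For 4 members the regorafenib to control log2 ratio lay above 0 in some states and below 0 in others, with counting intervals off 0 after TMM, and kept these signs under the 3 scalings. Each direction rests on 1 pair of libraries, and the difference was not tested across replicates. Cybb was higher with regorafenib in M0 (2.0) and M2 (2.26) and slightly lower in M1 (−0.058, and −0.017 with total counts). Ncf1 was lower in M2 (−0.086, and −0.0092 with total counts, where the counting interval covers 0) and higher in M1 (0.66) and M0 (0.32). Rac1 was lower in M0 (−0.15) and higher in M1 (0.12). Rac2 was lower in M0 (−0.20) and M2 (−0.21) and higher in M1 (0.29).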

How the results depend on the processing

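Of the settings tried, none turned the direction of a member count or of a called value. At 1.5-fold in place of 2-fold, 1 member differed between regorafenib and control in M1 (17.5% of all genes), 4 between M1 and M0 in regorafenib (56.1%), and 1 between M2 and M0 in regorafenib (23.3%). It was 3 in place of 2 for M1 against M0 in control (54.7%) and M1 against M2 in control (55.7%) and regorafenib (54.9%). With total counts, 1 member in place of 2 was past 2-fold in M1 against M0 and in M1 against M2 in control. In the fits, 1 member passed for the common regorafenib effect with DESeq2 (296 of 13150 genes passed). The same number passed with all genes with a count (333 of 24938 genes) or without the 2 M1 libraries (386 of 13538 genes). In M1 against M0, 2 members passed with total counts (6742 of 14110 genes). Leaving out each library in turn, 2 to 5 members passed in M1 against M0 and 1 to 4 in M1 against M2. Only libraries of the 2 states compared were left out, and each such fit left 1 library in a state. Without the block on treatment, Cybb no longer passed in M1 against M0 (3.22). With the longest transcript as length, Cybb to Cyba in M1 control was 1.8 in place of 2.06. The causes were not tested.

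Over all genes, the common regorafenib effect called 0 genes in the main setting, 296 with DESeq2, 333 with all genes with a count and 386 without the M1 libraries. M2 against M0 called 28 genes, 413 with DESeq2, 408 with all genes with a count, 0 without the block and 77 to 294 with a library left out. M1 against M2 called 5290 genes, 3218 without M2 control and 3095 without M2 regorafenib. With total counts, M1 against M0 split into 1629 higher and 5113 lower in place of 2609 and 2565, and M1 against M2 into 1801 and 4645 in place of 2671 and 2619. Without the minimum of 10 counts, 26.8%, 16.6% and 21.2% of genes were past 2-fold with regorafenib in M0, M1 and M2. The labels give no replicate numbers, so no fit with a replicate block was made, and the only blocks are state and treatment.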
